A study of Mus musculus with 10 samples.

Results

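The myeloid C-type lectin receptors are a family of cell surface proteins, and the 8 genes described here are Clec4a1, Clec4a2, Clec4a3, Clec4d, Clec4e, Clec5a, Clec7a and Clec12a. They were taken by gene symbol from a table of read counts that lists 48526 Ensembl genes, and 8 of 8 were found. The counts come from RNA sequencing of 10 mouse libraries, 5 from stressed and 5 from non-stressed animals of a strain labelled ApoE. The stressed animals underwent acute mental stress for 3 h on each of 3 days in a row before the aorta was removed, and cells sorted as aortic endothelium were sequenced. The labels give no more of the genotype, no age and no statement of how many animals made up a library, and the p-values therefore speak of variation among the 10 libraries, which may be technical in part.

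The libraries hold 18020220 to 38237346 counts. The endothelial label goes against the markers: Cdh5, the gene of VE-cadherin, stood at 0 to 0.994 CPM (a gene's count scaled to the total of its library), and 3 of the 14 endothelial markers (Tek, Cldn5 and Emcn) had no read in any library. The 11 that were read summed to 36.0 to 86.5 CPM in stressed and 40.1 to 92.5 CPM in non-stressed libraries, most of it from Vwf (15.97 to 44.8 CPM) and Pecam1 (12.2 to 46.8 CPM). Lyz2, the lysozyme of myeloid cells, stood at 15692 to 26749 CPM and Ptprc, the leukocyte antigen CD45, at 2650 to 3019 CPM. The values below are therefore those of libraries labelled aortic endothelial cells that carried monocyte transcripts at high levels. In such bulk RNA, fewer cells of a type and less RNA per cell cannot be told apart.

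C-type lectin receptors bind sugars, lipids and self molecules through a shared lectin-like domain and let monocytes, macrophages, neutrophils and dendritic cells sense fungi, mycobacteria and dying cells. Activating members signal through the kinase Syk and the adaptor Card9, either by a tyrosine motif of their own (Clec7a, also called Dectin-1) or through the partner chains encoded by Fcer1g (Clec4d and Clec4e) and Tyrobp (Clec5a). Inhibitory members such as Clec4a2 and Clec12a carry a motif that recruits the phosphatases encoded by Ptpn6 and Ptpn11.

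All 8 genes lie on chromosome 6 in mm10. Clec4a1 (122921848 to 122934619, plus strand), Clec4a3 (122952515 to 122969875, plus strand), Clec4a2 (123106428 to 123143999, plus strand), Clec4d (123262111 to 123275265, plus strand) and Clec4e (123281789 to 123289870, minus strand) follow each other in the Dectin-2 cluster. Clec12a (129342691 to 129365303, plus strand) and Clec7a (129461591 to 129472779, minus strand) are neighbours in the Dectin-1 cluster, and Clec5a (40574894 to 40585821, minus strand) stands apart. GENCODE M21 annotates Clec7a as a polymorphic pseudogene and the other 7 as protein coding. No annotated gene shares exon bases with a member, so overlap on the other strand does not touch their counts. No window of 50 bases is common to the annotated transcripts of any pair of members. Clec4a2 shares 114 such windows with Clec4a4 and 68 with Clec4b1, of 2959 windows in all, so a part of its reads is uncertain; Clec4a4 averaged 3.43 ± 1.55 CPM in stressed and 2.78 ± 2.12 CPM in non-stressed libraries (SD, n = 5 each).

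The start regions of 3 members are shown because their levels moved together or against each other between libraries. Clec4d and Clec4e are separated by 6523 bases and were high in the same libraries, and Clec5a was low where they were high. Each sequence runs from 250 bases before to 50 bases after the start in RefSeq (GRCm38.p6), 5′ to 3′ on the gene's own strand. Clec4d is at chr6:123261857-123262156 (plus strand), Clec4e at chr6:123289822-123290121 (minus strand) and Clec5a at chr6:40585756-40586055 (minus strand). Capitals mark matches, on either strand, to GAGGAA, the purine-rich core that the myeloid factor PU.1 can bind, and to TTNNGCAA, a form of the C/EBP site.
Clec4d: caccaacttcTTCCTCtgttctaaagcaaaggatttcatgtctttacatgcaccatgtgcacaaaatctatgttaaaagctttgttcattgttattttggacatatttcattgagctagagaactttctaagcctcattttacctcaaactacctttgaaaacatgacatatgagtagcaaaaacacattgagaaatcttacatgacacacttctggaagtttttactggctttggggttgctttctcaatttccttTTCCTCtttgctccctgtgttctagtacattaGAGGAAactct
Clec4e: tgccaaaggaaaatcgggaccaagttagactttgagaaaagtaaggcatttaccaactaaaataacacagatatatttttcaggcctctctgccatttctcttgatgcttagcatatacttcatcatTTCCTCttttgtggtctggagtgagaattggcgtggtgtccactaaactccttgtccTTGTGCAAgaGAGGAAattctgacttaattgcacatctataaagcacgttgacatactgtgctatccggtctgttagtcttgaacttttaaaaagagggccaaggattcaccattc
Clec5a: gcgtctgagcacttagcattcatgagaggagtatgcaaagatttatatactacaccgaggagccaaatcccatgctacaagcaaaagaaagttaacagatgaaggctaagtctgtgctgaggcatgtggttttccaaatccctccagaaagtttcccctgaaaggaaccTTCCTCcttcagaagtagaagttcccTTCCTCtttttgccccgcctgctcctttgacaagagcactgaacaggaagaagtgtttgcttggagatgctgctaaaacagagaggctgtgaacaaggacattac

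Clec4d held 3 matches to GAGGAA, with first bases at -240, 8 and 40 relative to the start, and none to TTNNGCAA. Clec4e held 2 matches to GAGGAA, at -123 and -56, and 1 to TTNNGCAA at -66, which do not overlap each other. Clec5a held 2 matches to GAGGAA at -81 and -55 and none to TTNNGCAA. RefSeq gave start regions for 8 of 8 members, 10 regions in all, since Clec4a3 and Clec7a have several starts. GAGGAA was in 8 of the 10 regions, those of 7 of the 8 members, against 28.3% of the 32851 regions of all genes. The 2 regions of Clec7a overlap and share their match. TTNNGCAA was in 2 of the 10 regions, those of Clec4e and Clec12a, against 10.8% of all regions. A form of the NF-kappaB site (GGG, any 5 bases, CC) was in 1 of the 10, that of Clec4a1, against 50.8% of all regions. The motifs were chosen after the sequences were seen, and a match describes letters only.

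Per kilobase of exon, the 8 genes ranked in the same order for the upper 4 in 10 of 10 libraries. Clec4a3, a receptor of the DCIR group, was the highest, with 317 ± 17.5 CPM per kilobase in stressed and 292 ± 22.3 in non-stressed libraries (SD, n = 5 each). Clec4a1, of the same group, followed with 269 ± 13.04 in stressed and 263 ± 21.4 in non-stressed libraries. Clec7a, the receptor of fungal beta-glucan, had 171 ± 20.2 and Clec12a, an inhibitory receptor for products of dead cells, 56.2 ± 6.44 CPM per kilobase in stressed libraries, against 174 ± 10.2 and 50.9 ± 8.49 in non-stressed ones. The other 4 lay lower and closer together. Clec4a2 averaged 27.7 ± 2.92 CPM per kilobase in stressed and 26.2 ± 5.13 in non-stressed libraries and was above Clec4d in 8 of 10. Clec4d, with 17.9 ± 9.10 in stressed and 17.8 ± 9.30 in non-stressed libraries, was above Clec4e in 8 of 10, and Clec4e, with 15.5 ± 5.66 in stressed and 13.02 ± 4.10 in non-stressed libraries, was above Clec5a in 8 of 10. Clec5a was the lowest at 9.40 ± 1.76 in stressed and 8.90 ± 1.63 in non-stressed libraries. The neighbours from Clec4a2 down to Clec5a thus changed places between libraries, while the upper 4 did not. The order of Clec4d and Clec4e depends on the length used. The exon union was 4965 bases for Clec4e and 1599 for Clec4d, against 2518 and 1323 in their longest coding transcripts. For Clec12a these lengths were 5528 and 2502 bases. In CPM, without length, Clec4d stood at 0.27 to 0.58 of the level of Clec4e.

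Stress was not accompanied by a called change in any of the 8 receptors. All 8 passed the filter on low counts, and 0 of 8 had an adjusted p under 0.05 in edgeR's quasi-likelihood test over 13334 genes, in which 0.0075% of genes (1 gene) were called. At an unadjusted p under 0.05 there were 0 of 8 members in edgeR, 0 in DESeq2 and 0 in limma-voom, beside 5.53% of all genes in edgeR, 2.59% with a higher and 2.95% with a lower level in stressed libraries. The groups overlapped in CPM for 8 of 8 members; among all genes 1.09% did not overlap. The 1 gene called was Chil3, a chitinase-like protein of myeloid cells, at 3722 ± 449.7 CPM in stressed and 1196 ± 189 CPM in non-stressed libraries (SD, n = 5 each). The fitted log2 fold change was above 0 for 7 of the 8 members, and for 50.9% of all genes; the median was 0.08 for the members and 0.004 for all genes. In CPM the 8 genes together summed to 1748 to 1881 in stressed and 1614 to 1874 in non-stressed libraries. Of the 8, the intervals were narrowest for Clec4a1, Clec4a3 and Clec7a and widest for Clec4d and Clec4e.

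**Figure D1:**
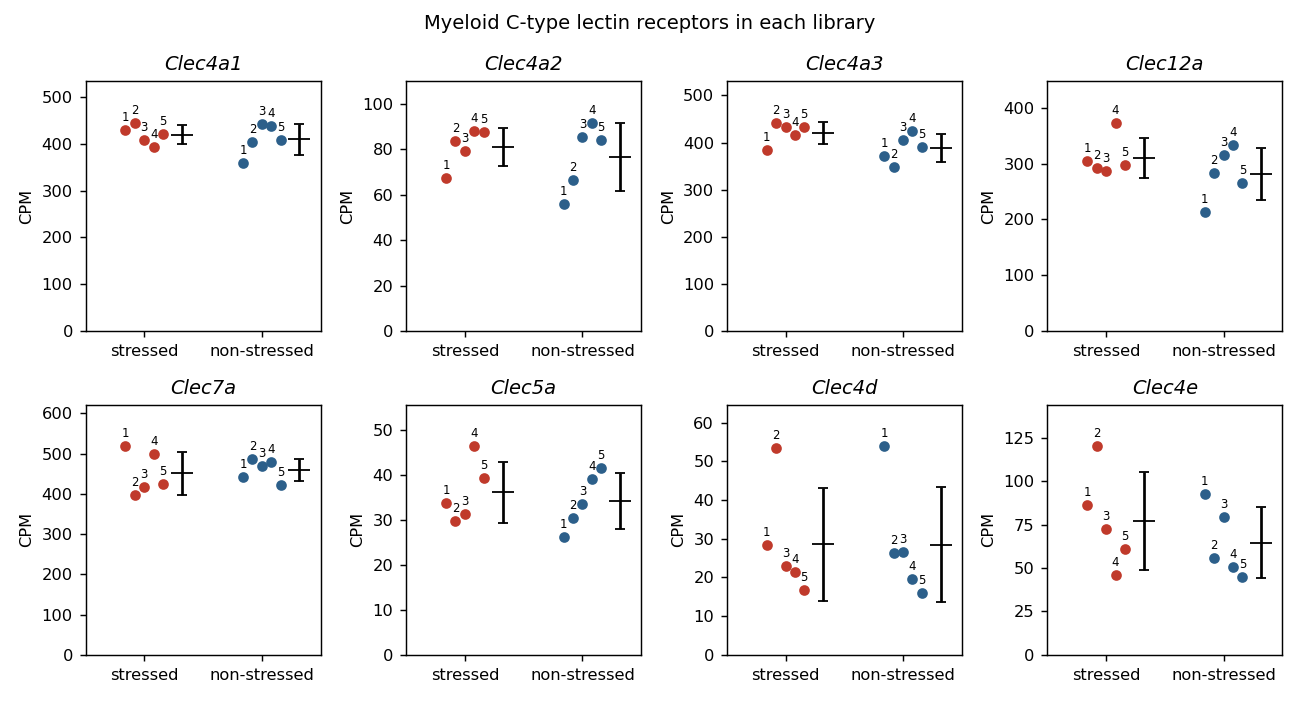
Level of each receptor in CPM (y axes from 0) in the 5 stressed and 5 non-stressed libraries, with replicate numbers beside the points and the mean ± SD to the right of them. The groups overlap in every panel, and Clec4d and Clec4e spread the most: stressed replicate 2 and non-stressed replicate 1 hold their highest values in each group.

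In the DCIR group, named for the dendritic cell immunoreceptor, Clec4a1 and Clec4a3 varied little between libraries and Clec4a2 varied more. Clec4a1 had 430.0, 445, 408, 392 and 421 CPM in stressed replicates 1 to 5, against 359, 403, 442, 437 and 407 CPM in non-stressed replicates 1 to 5. The groups overlapped over most of their range, with non-stressed replicate 1 the lowest. The log2 fold change of Clec4a1 was 0.04 (SE 0.07, 95% interval -0.11 to 0.19, edgeR adjusted p = 0.987). Clec4a3 had 383, 442, 432, 415 and 432 CPM in stressed libraries, against 372, 348, 405, 424 and 390.4 CPM in non-stressed ones. In 3 of 5 stressed libraries the level exceeded every non-stressed value, and the log2 fold change was 0.12 (SE 0.07, interval -0.03 to 0.27, edgeR adjusted p = 0.940). Clec4a2, the inhibitory member of the group, had 67.3, 83.6, 79.1, 88.0 and 87.5 CPM in stressed libraries, against 55.8, 66.6, 85.5, 91.8 and 84.2 CPM in non-stressed ones. Replicate 1 was the lowest in both groups, and the log2 fold change was 0.08 (SE 0.13, interval -0.20 to 0.37, edgeR adjusted p = 0.980).

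The Dectin-1 cluster gave similar pictures. Clec7a had 518, 398, 417, 498 and 424 CPM in stressed libraries, against 443, 488, 469, 478 and 423 CPM in non-stressed ones. The stressed libraries held both the highest and the lowest values, 2 of 5 above and 2 of 5 below all non-stressed ones. The log2 fold change was -0.02 (SE 0.08, interval -0.20 to 0.15, edgeR adjusted p = 0.993). Clec12a had 304, 292, 286, 373 and 298 CPM in stressed libraries, against 213, 282, 315, 333 and 265 CPM in non-stressed ones. Stressed replicate 4 was the highest and non-stressed replicate 1 the lowest, and the log2 fold change was 0.14 (SE 0.11, interval -0.09 to 0.38, edgeR adjusted p = 0.950).

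Clec5a, also called MDL-1, which pairs with the chain encoded by Tyrobp, had 33.8, 29.8, 31.2, 46.3 and 39.2 CPM in stressed libraries, against 26.2, 30.5, 33.6, 39.1 and 41.6 CPM in non-stressed ones. Its log2 fold change was 0.08 (SE 0.15, interval -0.24 to 0.41, edgeR adjusted p = 0.987). Replicates 4 and 5 of both groups were its 4 highest libraries, so the groups overlapped over most of their range.

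Clec4d and Clec4e, receptors for mycobacterial glycolipid that are known to act together (MCL and Mincle), varied the most between libraries of a group. Clec4d had 28.5, 53.5, 22.9, 21.3 and 16.7 CPM in stressed libraries, against 53.8, 26.4, 26.5, 19.6 and 16.1 CPM in non-stressed ones. A single library of each group, stressed replicate 2 and non-stressed replicate 1, stood far above the rest. The log2 fold change of Clec4d was 0.01 (SE 0.33, interval -0.69 to 0.71, edgeR adjusted p = 0.9998). It was -0.35 without stressed replicate 2 and 0.36 without non-stressed replicate 1. Clec4e had 86.1, 119.9, 72.1, 46.1 and 61.2 CPM in stressed libraries, against 92.5, 55.7, 79.5, 50.7 and 44.9 CPM in non-stressed ones. Its highest library in each group was the same as for Clec4d, and the log2 fold change was 0.26 (SE 0.24, interval -0.25 to 0.76, edgeR adjusted p = 0.955). It ran from 0.04 to 0.41 when each library was left out in turn. Over 5794 genes with an average at least as high as that of Clec4d, the within-group SD of log2 CPM was smaller than that of Clec4d (0.64) for 98.9% and smaller than that of Clec4e (0.48) for 98.0%. For Clec4a1 and Clec4a3, each with an SD of 0.10, this share was 14.1% and 13.9%.

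**Figure D2:**
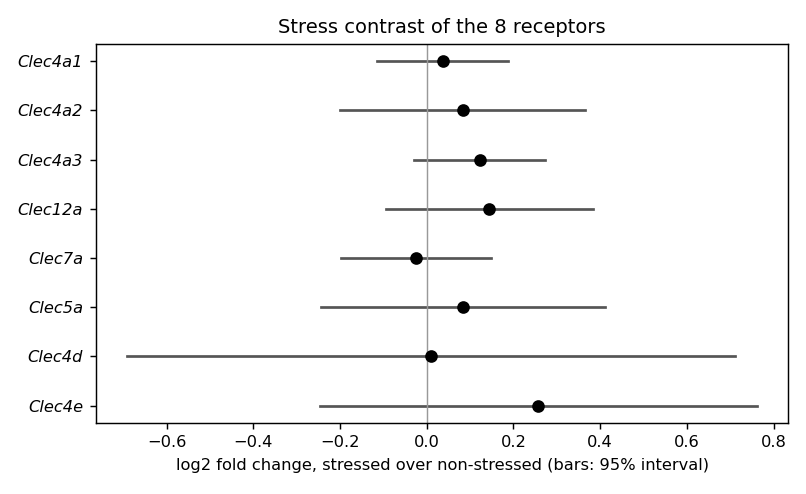
Log2 fold change of each receptor, stressed over non-stressed (x axis), from edgeR with its 95% interval as a bar; the line marks 0. Every interval crosses 0, and those of Clec4d (-0.69 to 0.71) and Clec4e (-0.25 to 0.76) are the widest.

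The labels do not give the sex of the animals. Xist, the X-inactivation transcript, was read in 4 libraries (replicates 1 and 5 of each group) and the Y-linked gene Ddx3y in the other 6. In the 6, the difference between group means of log2 CPM was -0.05 for Clec4a1, -0.14 for Clec7a, 0.02 for Clec12a, 0.31 for Clec4d and 0.27 for Clec4e. In the 4 it was 0.17, 0.13, 0.36, -0.42 and 0.18 for the same genes. Clec4a1, Clec4d and Clec7a thus had opposite signs in the 2 sets, and the edgeR interaction of stress with Y-linked transcripts passed for none of the 8 members (adjusted p = 0.999997 for each; unadjusted p from 0.133 to 0.903).

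Between libraries of the same group, Clec4d, Clec4e and Clec5a moved together or apart. Group means of normalized log2 CPM were subtracted, and all 28 pairs were compared over the same 10 libraries. The permutations took these libraries as unrelated, also those with the same replicate number in the 2 groups. Clec4d and Clec4e varied together (Pearson r = 0.87, permutation p = 0.000760, adjusted p = 0.0177; Spearman rho = 0.88, adjusted p = 0.0232). Clec5a went against both, with r = -0.83 to Clec4d (permutation test, adjusted p = 0.0177; rho = -0.81, adjusted p = 0.0628) and r = -0.86 to Clec4e (permutation test, adjusted p = 0.0177; rho = -0.88, adjusted p = 0.0232). These 3 of 28 pairs passed by Pearson's r. Without the pair of libraries farthest from the median, stressed replicate 2 and non-stressed replicate 1, r was 0.70, -0.71 and -0.76. In the 6 libraries with Y-linked transcripts it was 0.87, -0.68 and -0.78; the 4 with Xist are too few for a value.

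Each of these calls was lost when some single libraries were left out, while r kept its direction. A test over 9 libraries has less power, so a lost call does not show that the library left out carried the relation. The pair of Clec4d and Clec4e did not pass without non-stressed replicate 1 (r = 0.84, exact permutation test, adjusted p = 0.0623) or 4 (r = 0.86, adjusted p = 0.0648). The pair of Clec4d and Clec5a did not pass without non-stressed replicate 1, 4 or 5 (r = -0.74, -0.82 and -0.79) or stressed replicate 5 (r = -0.82). The pair of Clec4e and Clec5a did not pass without non-stressed replicate 1, 4 or 5 (r = -0.82, -0.85 and -0.83) or stressed replicate 4 or 5 (r = -0.80 and -0.85). No pair passed in the 6 libraries with Y-linked transcripts. Of the pairs that did not pass over all 10, Clec4a2 and Clec4a3 had the highest r (0.79, permutation test, adjusted p = 0.0532). Clec7a had no r beyond 0.54 in size with another member, which was that with Clec12a (permutation test, adjusted p = 0.240). Within the 6 libraries with Y-linked transcripts Clec7a had r = -0.90 with Clec4e and 0.85 with Clec5a. It had 0.78 with Clec12a and -0.75 with Clec4a1, and none of these passed. The largest r in these 6 libraries was that of Clec5a with Clec12a (0.98), which did not pass either.

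**Figure D3:**
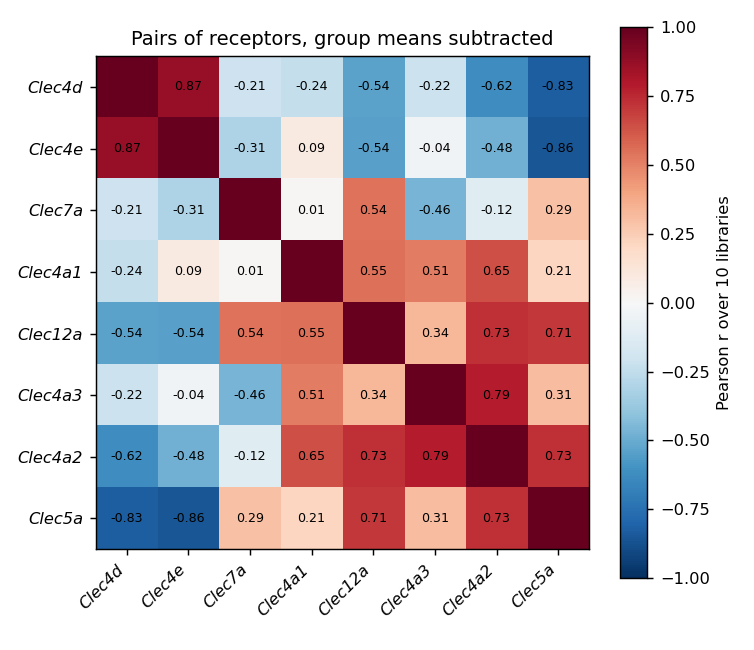
Pearson r between receptors over 10 libraries after subtracting group means (colour scale from -1 to 1, value in each cell). Clec4d and Clec4e (0.87) stand against Clec5a (-0.83 and -0.86), which shares positive values with Clec4a2 (0.73) and Clec12a (0.71).

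Marker levels of several cell types differed between the same libraries. The 14 neutrophil markers, each read in at least 1 library, summed to 1093 to 2430.5 CPM in stressed and 816 to 2641 CPM in non-stressed libraries. Csf3r alone stood at 578 to 969 CPM over all libraries and made up much of these sums. Camp, Ltf and Mpo had no read in 5 libraries each, and Elane in 2. Ly6g stood at 0 to 5.19 CPM and Ngp at 0 to 13.9 CPM over all libraries, while S100a8 ran from 35.7 to 567 CPM, S100a9 from 53.4 to 698 CPM and Cxcr2 from 9.63 to 122 CPM. S100a8 and S100a9 were highest in stressed replicate 2 and non-stressed replicate 1 of their groups, as Clec4d was. Not all markers of the list did so: among non-stressed libraries, Ly6g, Ngp, Camp and Ltf were higher in replicate 2 than in replicate 1. The mean log2(CPM + 1) of the list was 4.66 in non-stressed replicate 1 and 4.67 in replicate 2. The 12 non-classical monocyte markers, all detected, summed to 5109 to 6807 CPM in stressed and 4497 to 8260 CPM in non-stressed libraries. The 10 classical monocyte markers, all detected and Chil3 among them, summed to 17208 to 20576 CPM in stressed and 11463 to 16298 CPM in non-stressed libraries. They did not move as a set: in edgeR 6 had a log2 fold change above 0 and 4 below 0. Chil3 averaged 3722 CPM in stressed and 1196 CPM in non-stressed libraries, while Ly6c2 averaged 791 ± 230 and 968 ± 242 CPM (SD, n = 5 each). The 12 T and NK cell markers, all detected, summed to 14.6 to 100.1 CPM in stressed and 22.8 to 136 CPM in non-stressed libraries.

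Each member was set against the mean log2(CPM + 1) of each of 10 marker lists, group means subtracted, which made 80 relations, a choice made after the data were seen. By Pearson's r, 3 of 80 passed. Clec4d followed the neutrophil markers (r = 0.84, permutation test, adjusted p = 0.0204; rho = 0.84, adjusted p = 0.0491). Clec4a2 followed the classical monocyte markers (r = 0.88, permutation test, adjusted p = 0.0204; rho = 0.88, adjusted p = 0.0376) and the general monocyte and macrophage markers (r = 0.86, permutation test, adjusted p = 0.0248; rho = 0.90, adjusted p = 0.0348). The last 2 lists share genes. Without the pair of libraries farthest from the median of the markers, these r values were 0.85, 0.79 and 0.72, and within the 6 libraries with Y-linked transcripts 0.83, 0.95 and 0.87.

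These calls too were lost without some single libraries, by exact permutation tests over the same 80 relations in 9 libraries. A lost call did not need a lower r. For Clec4a2 and the classical markers, r was 0.881 over 10 libraries and 0.885 without non-stressed replicate 4. The relation of Clec4d to the neutrophil markers did not pass without stressed replicate 3 or 5 or non-stressed replicate 1, 4 or 5, with r of 0.80 to 0.85 and adjusted p of 0.0599 to 0.140. That of Clec4a2 to the classical markers did not pass without stressed replicate 3 or 5 or non-stressed replicate 1 or 4 (r of 0.83 to 0.89, adjusted p of 0.0599 to 0.137). That of Clec4a2 to the general markers did not pass without the libraries that end the call of Clec4d (r of 0.76 to 0.87, adjusted p of 0.0599 to 0.149).

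Other relations did not pass by Pearson's r. Clec4d had r = 0.79 with the non-classical monocyte markers (permutation test, adjusted p = 0.0631; rho = 0.92, adjusted p = 0.0348). With the T and NK cell markers it had r = 0.78 (permutation test, adjusted p = 0.0631; rho = 0.84, adjusted p = 0.0491), and with the classical monocyte markers r = -0.75 (permutation test, adjusted p = 0.0862; rho = -0.85, adjusted p = 0.0491). Clec4e had r = 0.77 with the non-classical, 0.75 with the T and NK cell, 0.73 with the platelet and 0.70 with the neutrophil markers. Clec5a had r = -0.80 with the non-classical and 0.78 with the classical monocyte markers. With the T and NK cell and the neutrophil markers Clec5a had -0.77 and -0.71. The largest r in size that did not pass was that of Clec4a3 with the B cell markers (-0.81, permutation test, adjusted p = 0.0631). All lists were read in the same libraries as the receptors, and the part of cell make-up in the spread of the receptors was not tested. In a fit that also held the neutrophil marker level, the log2 fold change of Clec4d was -0.33 (edgeR, adjusted p = 0.572) and that of Clec4e 0.04 (adjusted p = 0.969). In a fit that held the non-classical marker level in its place, they were 0.14 (edgeR, adjusted p = 0.934) and 0.33 (adjusted p = 0.638).

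**Figure D4:**
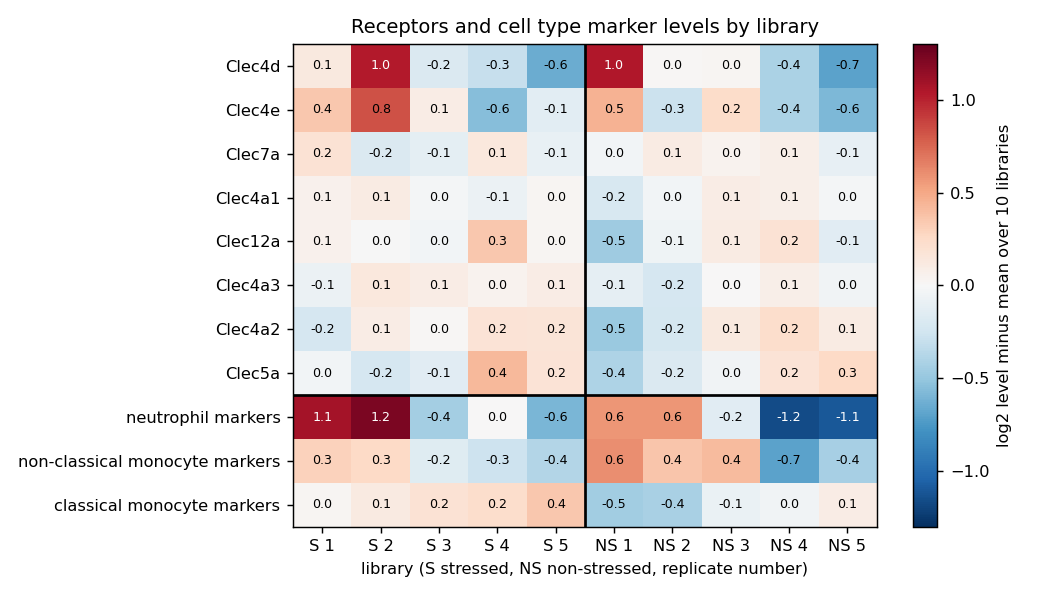
Log2 level of each receptor and of 3 marker lists in each library, minus its mean over 10 libraries (colour and number). Clec4d and Clec4e are highest in stressed replicate 2 and non-stressed replicate 1; Clec4d is lowest in replicate 5 of each group.

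The genes most like each member, by Pearson r after subtracting group means over 10 libraries searched among the 8695 genes averaging 3 log2 CPM or more, are given as a description. For Clec4d they were Pbxip1 (r = 0.96) and Il1b (r = 0.96), which encodes interleukin 1 beta and ran from 37.6 to 373 CPM. For Clec4e they were Smpdl3b (r = 0.98) and Prkaa1 (r = 0.98), a catalytic subunit of the energy sensor AMPK. Clec4a2 was most like H2afz, a histone variant gene (r = 0.99), and Arl11 (r = 0.95). Clec4a1 was most like Trim23 (r = 0.97) and Pik3r4 (r = 0.94), and Clec4a3 was most like Myo1h and Ggcx (r = 0.94 each). Clec5a was most like Plxnd1 (r = 0.96) and Ppp1r21 (r = 0.95). Clec7a was most like Kctd6 and Epb41l2 (r = 0.93 each), and Clec12a was most like Aim2, a sensor of cytosolic DNA (r = 0.96), and Rpl32 (r = 0.94). No member was among the 2 genes most like another member. The highest of 8695 values over 10 libraries is high by selection.

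The partners through which these receptors signal gave no call. Of the 26 listed genes, 21 averaged 100 CPM or more, and Src was the lowest at 0 to 1.44 CPM. All 26 were tested, 10 had a log2 fold change above 0 and 16 below 0, and 0 passed over all genes in edgeR, DESeq2 or limma-voom. At an unadjusted p under 0.05 there were 2 of 26, against 5.53% of all genes, and the median log2 fold change was -0.03, against 0.004 for all genes. The chains that carry the signal stood at even levels: Tyrobp averaged 1074 ± 76.8 CPM in stressed and 1028 ± 52.5 CPM in non-stressed libraries (SD, n = 5 each), and Fcer1g 632 ± 32.8 and 648 ± 17.5 CPM. Their log2 fold changes were 0.07 (SE 0.07, edgeR adjusted p = 0.959) and -0.03 (SE 0.06, adjusted p = 0.987). The kinase gene Syk had 0.04 (SE 0.06), Ptpn6 0.03 (SE 0.07), Prkcd -0.05 (SE 0.09), Plcg2 0.01 (SE 0.06), and the Src family kinase gene Lyn 0.01 (SE 0.07); their adjusted p values in edgeR were 0.971 or higher.

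Card9 and Nfkb1 were the 2 genes with an unadjusted p under 0.05. Card9, the adaptor that links Syk to NF-kappaB, had 227, 246, 342, 321 and 294 CPM in stressed libraries, against 203, 188, 213, 253 and 270.3 CPM in non-stressed ones. In 3 of 5 stressed libraries Card9 exceeded every non-stressed value, and the log2 fold change was 0.35 (SE 0.12, edgeR adjusted p = 0.836). In the fit that held the neutrophil marker level, chosen after the data were seen, Card9 had 0.48 and passed over all genes (edgeR, adjusted p = 0.0135). Nfkb1, the gene of the p105 and p50 subunit, had 465, 472, 425, 429 and 444 CPM in stressed libraries, against 517, 529, 520.4, 458 and 485 CPM in non-stressed ones. Of the stressed libraries, 3 of 5 lay below all non-stressed ones (log2 fold change -0.16, SE 0.06, edgeR adjusted p = 0.874). Traf6, a ubiquitin ligase on the way to NF-kappaB, had -0.18 (SE 0.09) and Vav3 had -0.26 (SE 0.14), both at an adjusted p of 0.898 in edgeR.

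**Figure D5:**
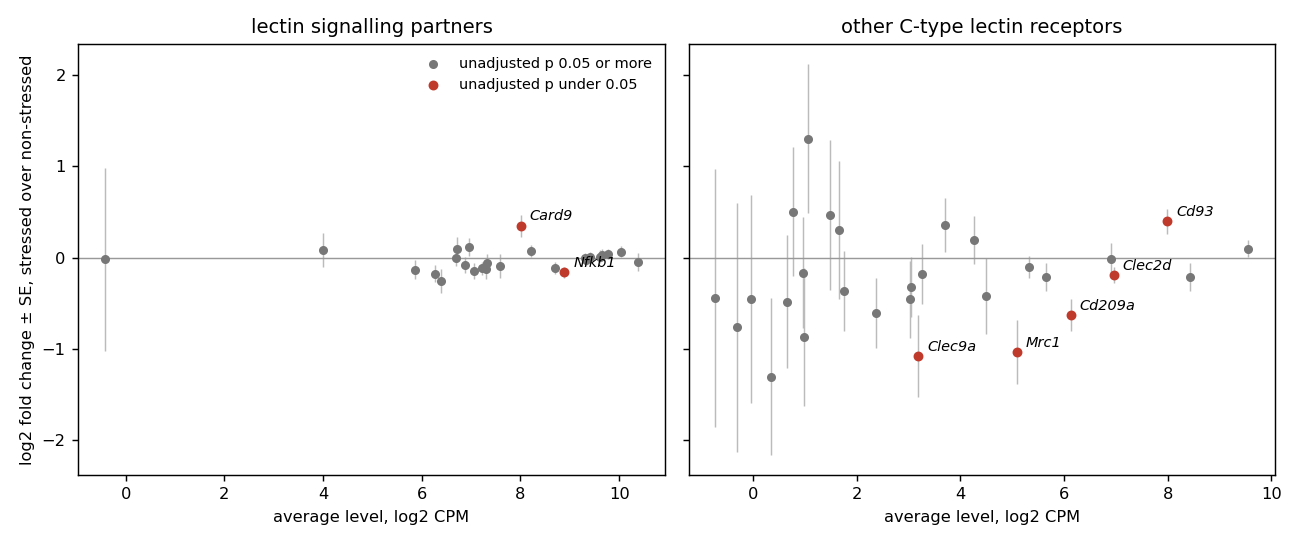
Log2 fold change ± SE, stressed over non-stressed (y axis), against average level in log2 CPM (x axis) for 26 signalling partners and 29 other C-type lectin receptors; red marks an unadjusted p under 0.05. Between Vav3 (-0.26) and Card9 (0.35), all partners lie close to 0, the low gene Src with a wide error. Among the other receptors, Clec9a (-1.08) and Mrc1 (-1.04) lie lower. Genes at low levels also lie far from 0, such as Cd209c (mean 0.673 CPM in stressed, 1.68 CPM in non-stressed libraries) and Selp (2.91 and 1.17 CPM).

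Other receptors with a C-type lectin domain were mostly low in these libraries. Of 41 listed, 29 passed the filter on low counts, and the 12 that did not averaged at most 0.334 CPM. Of the 29, 8 had a log2 fold change above 0 and 21 below 0, with a median of -0.22, and 0 passed over all genes in edgeR, DESeq2 or limma-voom; 5 had an unadjusted p under 0.05, against 5.53% of all genes. Cd209a, a receptor of monocyte-derived dendritic cells, had 52.1, 57.1, 42.2, 70.8 and 51.7 CPM in stressed libraries, against 59.3, 126, 86.1, 78.6 and 76.1 CPM in non-stressed ones. Of the stressed libraries, 4 of 5 lay below all non-stressed ones (log2 fold change -0.63, SE 0.18, edgeR adjusted p = 0.725). Mrc1, the mannose receptor, averaged 22.2 ± 11.7 CPM in stressed and 45.7 ± 19.3 CPM in non-stressed libraries (log2 fold change -1.04, SE 0.35, edgeR adjusted p = 0.829). Blocking on the replicate number gave -1.08, which passed over all genes (edgeR, adjusted p = 0.0124); the numbers are not known to pair the libraries.

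Clec9a, a receptor of cross-presenting dendritic cells, averaged 5.78 ± 2.29 CPM in stressed and 12.2 ± 6.89 CPM in non-stressed libraries (-1.08, SE 0.45, edgeR adjusted p = 0.874). Cd93, a receptor of monocytes and endothelium, averaged 289 ± 65.1 CPM in stressed and 219.9 ± 24.9 CPM in non-stressed libraries (0.40, SE 0.14, edgeR adjusted p = 0.836), with 4 of 5 stressed libraries over the highest non-stressed value and 1 under the lowest. Beside Cd209a and Clec9a, the 12 dendritic cell markers, all detected and Cd209a among them, had 9 of 12 tested members below 0. They summed to 1435 to 2145 CPM in stressed and 1849 to 5832 CPM in non-stressed libraries. The highest sum was that of non-stressed replicate 2, with Cd74 at 3715 and H2-Aa at 1331 CPM. The other non-stressed libraries summed to 1849 to 2893 CPM. Flt3 went the other way, averaging 51.5 ± 10.3 CPM in stressed and 37.8 ± 9.08 CPM in non-stressed libraries. The part of these markers in the values of Cd209a and Clec9a was not tested.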

How the data were processed

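The deposited values are raw read counts per Ensembl gene, not normalized. The submitters' processing notes name mm10 and the tools STAR, featureCounts and Trimmomatic; no version, annotation or strand setting is given in the labels. Libraries came from a TruSeq Stranded kit, per the labels' protocols. Symbols matched 48058 of 48526 identifiers (GENCODE M21), and the other 468 held at most 0.0636% of a library. Total counts of 18020220 to 38237346 put the limit of a count of 0, taken as 3 counts, at 0.0785 to 0.166 CPM per library (counting error only). CPM uses the plain library total, and kilobases are the union of annotated exons. Libraries of a group were not duplicates (20 pairs, chi-square of 21.1 to 64.8 times its degrees of freedom).

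Groups came from the titles. The main test was edgeR 4.0.16 under R 4.3.3 (filterByExpr with a minimum count of 10, TMM factors, intercept and group, quasi-likelihood F test, Benjamini-Hochberg adjustment over 13334 genes at 0.05) and checked on simulated data. A standard error is the log2 fold change, unsigned, over the root of F. Relations across libraries used Pearson and Spearman permutation tests (two-sided, 100000 resamples; exact for fewer than 10 libraries; numpy 2.4.6, scipy 1.17.1), adjusted over 28 pairs or 80 marker relations. Subtracting group means leaves the 10 values not fully independent, so these p-values are somewhat too small. Same-numbered libraries of the 2 groups were taken as unrelated, though Xist was read in replicates 1 and 5 of both. With a block on the replicate number, the SE of Clec4d fell from 0.33 to 0.21 and that of Clec4e from 0.24 to 0.16. If same-numbered libraries are alike, the p-values are too small for that reason also.

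Named genes were all members, the 4 listed genes with the smallest p and those at 9 log2 CPM or more in each list, the 2 genes most like each member, Chil3 and set cell markers. Of the genes this rule names, 2 are not reported here. The members, lists and rules were chosen with earlier results of these data known. Alternatives were DESeq2 1.42.0, limma-voom with sample weights (limma 3.58.1), upper-quartile or RLE factors, no low-count filter or a CPM minimum, a replicate block, a Y-linked covariate, the libraries with and without Ddx3y (over 100 reads), each library left out, and a threshold of 0.1. A neutrophil or non-classical marker covariate was added after the data were seen.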

Additional observations from a re-analysis of the deposited data

Results flagged for a closer look

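Among the 16 combinations of a receptor and a group, the gap of an extreme library to the next, divided by the group's range, passed Dixon's 95% critical value for 5 libraries (0.71) in 2. Clec4d stood at 53.8 CPM in non-stressed replicate 1, against 16.1 to 26.5 CPM in the other non-stressed libraries. Clec12a stood at 373 CPM in stressed replicate 4, against 286 to 304 CPM in the other stressed libraries. Chance alone flags about 1 group in 20.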

How the results depend on the processing

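Over 23 alternatives, 168 of 184 log2 fold changes of the members kept their direction. The threshold of 0.1 is among the 23 and reuses the main fit, so its values could not turn. In the 21 alternatives with a test, no member was called; the values within the libraries with Y-linked transcripts or Xist have no test. Apart from libraries left out, 5 values turned, those of Clec4a1 (-0.0029 with limma-voom and -0.045 within the libraries with Y-linked transcripts), Clec7a (0.13) and Clec4d (-0.42) within the libraries with Xist, and Clec4d with the neutrophil covariate (-0.33). With a library left out, 11 more turned, of Clec4a1, Clec4a2, Clec4d, Clec5a and Clec7a, and values ran from -0.015 to 0.063 for Clec4a1, -0.019 to 0.16 for Clec4a2, 0.08 to 0.16 for Clec4a3, -0.35 to 0.36 for Clec4d, 0.04 to 0.41 for Clec4e, -0.026 to 0.16 for Clec5a, -0.082 to 0.011 for Clec7a and 0.05 to 0.21 for Clec12a. The cause was not tested. Over all genes, edgeR called 1 gene, DESeq2 19, limma-voom 2, edgeR without a low-count filter 10, and with the neutrophil or non-classical covariate 22 or 10.

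With the replicate block 4 genes were called, 1 of them among the other lectins (Mrc1), and Clec4e had 0.24; same-numbered libraries correlated by 0.001 to 0.15, above 0.1 in 2 of 5 numbers. For 4 of 5 stressed libraries the best match was the non-stressed one of the same number, a hint from the data and not from the labels. With the neutrophil covariate 1 signalling partner (Card9) was called. Within the 6 libraries with Y-linked transcripts 0 pairs of members were called, but in so few libraries a pair could hardly pass. There r was 0.87 for Clec4d and Clec4e, -0.68 for Clec4d and Clec5a and -0.78 for Clec4e and Clec5a. With a library left out, 0 to 6 pairs were called, and r ran from 0.80 to 0.94, -0.90 to -0.74 and -0.92 to -0.80 for these pairs. The member with the fewest reads was Clec4d, with 7532 over 10 libraries.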
